A study of Mus musculus with 4 samples.

Results

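The epidermal growth factor (EGF) family was described as 10 genes, the ligands Areg, Ereg, Hbegf, Btc, Tgfa, Epgn and Nrg1 and the receptors Egfr, Erbb2 and Erbb3, out of 32286 features counted in each library. The genes were taken by symbol, and the group was chosen by measured values of the same data, since Hbegf and Btc had been picked for a rise in glial or stromal cells of EC-Foxc-DKO mice. The genotype difference in those cells is therefore given below as values, with no test. Cells of the distal jejunum were profiled by droplet single-cell RNA sequencing of transcript 3′ ends from 4 mice, 2 per group, each collected 18.5 h after small intestinal ischemia and reperfusion (I/R). Control mice carried floxed alleles of both forkhead genes (Foxc1fl/fl;Foxc2fl/fl), and EC-Foxc-DKO mice carried the same alleles together with Cdh5-CreERT2, a tamoxifen-inducible Cre recombinase under a promoter active in endothelial cells. Mice of both groups received tamoxifen and the surgery, so no library shows uninjured tissue. Their age is not given in the labels. The study's methods describe the adult mice given tamoxifen as male and state their age at that treatment.

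EGF family ligands are made as membrane-anchored precursors that metalloproteinases cut free, and they bind receptor tyrosine kinases of the ErbB family. EGFR binds amphiregulin, epiregulin, HB-EGF, betacellulin, TGF-alpha and epigen, ERBB2 has no known ligand and acts as a partner, and ERBB3 binds neuregulins and signals with a partner because its own kinase is weak. In the intestine the family is known for its part in growth of crypt cells and in repair of the epithelium after injury.

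After removal of barcodes with over 10% mitochondrial UMIs (unique molecular identifiers, each counting 1 captured RNA molecule), 5615 of 22679 barcodes were kept, between 348 in Control 2 and 2742 in EC-Foxc-DKO 1. The libraries differed in quality and depth: the median mitochondrial share of all barcodes ran from 14.98% in EC-Foxc-DKO 1 to 54.0% in Control 2, and kept cells had a median of 4255 UMIs in EC-Foxc-DKO 1 and 19871 in EC-Foxc-DKO 2. A barcode present in 2 libraries was carried by 24 kept cells. Clustering gave 20 cell classes named by markers and 2 unnamed clusters with 296 cells, and 8 of the classes were epithelial. Foxc1 had 9, 11, 6 and 3 UMIs in the kept cells of Control 1, Control 2, EC-Foxc-DKO 1 and EC-Foxc-DKO 2, Foxc2 had 0 in all 4, and Cre had 0, 0, 3 and 3. In blood endothelial cells alone Foxc1 had 1, 5, 1 and 0 UMIs and Cre had 0, 0, 3 and 2. The deletion itself was thus not measurable at this depth. Levels are given as CPM (counts scaled to a total of 1000000), computed after adding up the cells of 1 class in 1 mouse. A mean is taken over the mice with at least 10 cells of the class, which leaves 18 classes with 2 or more such mice. Differences between classes are descriptions, since the classes were formed on the same cells.

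Epgn, Ereg, Areg and Btc lie side by side on mouse chromosome 5 within 375.53 kb (GRCm38). Epgn is at chr5:91027464-91035215 and Ereg at chr5:91074622-91093646, both on the plus strand. Areg is at chr5:91139599-91148432 on the plus strand, and Btc is at chr5:91357261-91402994 on the minus strand. The promoters of Areg and Btc are shown because these neighbors had unlike levels over the same cells, as described below. They cover 250 bases before and 50 after the annotated start in RefSeq (GRCm38.p6, chr5:91139349-91139648 on the plus strand for Areg and chr5:91402945-91403244 on the minus strand for Btc). Capitals mark the only match to the letters searched on both strands, which were TGACGTCA (cAMP response element), TGANTCA (AP-1) and GTAAACA (forkhead). The study's methods used the wider forkhead patterns RYMAAYA and RYACACA (R is A or G, Y is C or T, M is A or C). These were not searched here, so a window without capitals can still hold a forkhead site by the study's patterns.
Areg: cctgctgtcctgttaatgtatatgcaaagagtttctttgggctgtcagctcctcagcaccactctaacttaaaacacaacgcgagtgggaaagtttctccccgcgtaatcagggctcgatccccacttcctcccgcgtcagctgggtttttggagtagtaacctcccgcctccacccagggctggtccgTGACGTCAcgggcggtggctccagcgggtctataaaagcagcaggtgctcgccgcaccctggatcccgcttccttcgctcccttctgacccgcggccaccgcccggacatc
Btc: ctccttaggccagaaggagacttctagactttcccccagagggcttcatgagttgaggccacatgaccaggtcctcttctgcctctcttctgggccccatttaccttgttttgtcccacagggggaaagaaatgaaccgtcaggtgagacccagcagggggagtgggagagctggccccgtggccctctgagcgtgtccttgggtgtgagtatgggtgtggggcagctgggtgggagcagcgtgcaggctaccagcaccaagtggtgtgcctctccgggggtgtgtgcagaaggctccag
The Areg match begins 61 bases before the start. TGACGTCA stands in 1.79% of 32851 promoters of this length, TGANTCA in 7.81% and GTAAACA in 3.65%. The windows of Epgn, Tgfa, Egfr and Erbb2 held no match either, Ereg, Nrg1 and Erbb3 had no entry, and the position and promoter of Hbegf were not analysed here.

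Most of the family's RNA came from the epithelium. The 8 epithelial classes held 42.2% of kept cells and 80.4% of all UMIs. They held 97.7% of the 20277 Areg UMIs, 97.9% of the 23642 Hbegf UMIs, 97.6% of the 953 Tgfa UMIs, 96.8% of the 2019 Erbb2 UMIs and 96.6% of the 8986 Erbb3 UMIs. Btc followed with 93.8% of 916 UMIs and Egfr with 90.96% of 1736. Ereg had 77.0% of 967 UMIs there, the rest being mostly stromal. Nrg1 stood apart with 9.76% of 123 UMIs in the epithelium, and Epgn had 10 UMIs in 7 cells of all libraries. Follicular B cells, 1379 in all, are not expected to express these genes and were taken as a gauge of free RNA, which was not tested. Their means over 4 mice were 4.08 CPM for Areg, 5.35 for Hbegf and 0.0559 for Btc. They were 0.652 for Ereg, 2.66 for Egfr and 4.62 for Erbb3. Single mice ran from 0 to 14.3 CPM for Areg, 0 to 16.7 for Hbegf, 0 to 9.54 for Egfr and 0 to 9.83 for Erbb3.

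**Figure D1:**
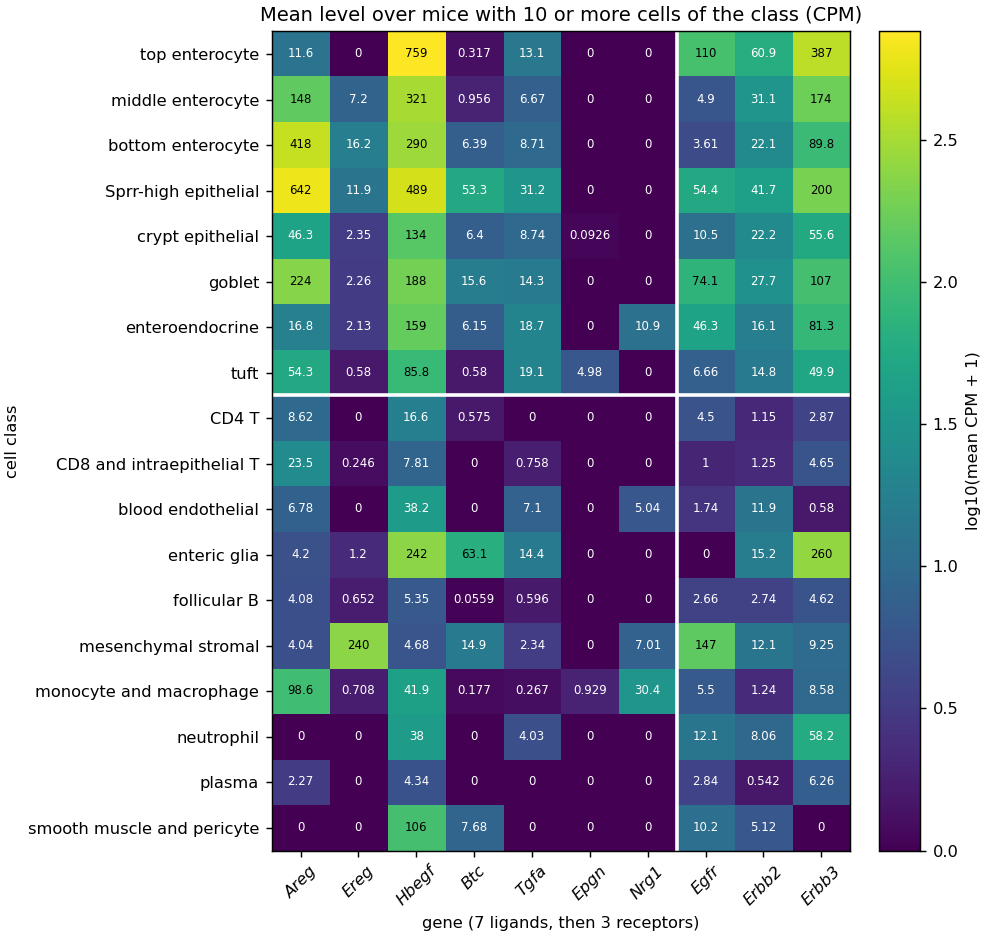
Mean level of each gene (columns, 7 ligands then 3 receptors) in each of 18 cell classes (rows, epithelial classes above the white line), in CPM averaged over mice with at least 10 cells of the class; color gives log10(mean CPM + 1) and the printed number the mean CPM. Areg, Hbegf, Tgfa, Erbb2 and Erbb3 are spread over the epithelial rows, whereas Ereg is highest in mesenchymal stromal cells and Nrg1 in monocytes and macrophages. The mean of Btc in enteric glia pools Control mice at 12.03 and 0 CPM with EC-Foxc-DKO mice at 148 and 91.98 CPM.

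Areg encodes amphiregulin, an EGFR ligand known for its role in tissue repair. It was highest in Sprr-high epithelial cells, a class of 283 cells led by Sprr2a3, of a family of small proline-rich proteins. There it reached 732 CPM in Control 1, 474 in EC-Foxc-DKO 1 and 720 in EC-Foxc-DKO 2, a mean of 642 ± 145 CPM (SD, n = 3). Bottom enterocytes, the enterocytes nearest to the crypt by their markers, had 549, 461, 304 and 359 CPM in Control 1, Control 2, EC-Foxc-DKO 1 and EC-Foxc-DKO 2, so the ranges of these leading classes overlapped. The level decreased along the villus order of the markers, from 418 ± 109 CPM (SD, n = 4) in bottom enterocytes to 148 ± 38.7 (SD, n = 3) in middle and 11.6 ± 5.04 (SD, n = 2) in top enterocytes, with no overlap between mice of these 3 classes. Goblet cells, the mucus-secreting class, had 224 ± 129 CPM (SD, n = 3).

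Hbegf, the gene of heparin-binding EGF-like growth factor, had the opposite order along the villus. Top enterocytes had 867 CPM in Control 1 and 650 in EC-Foxc-DKO 1, the only mice with enough of these cells, a mean of 759 ± 153 CPM (SD, n = 2). Middle enterocytes had 321 ± 94.1 CPM (SD, n = 3) and bottom enterocytes 290 ± 37.5 (SD, n = 4), and these 2 classes overlapped. Sprr-high cells, at 489 ± 26.0 CPM (SD, n = 3), lay between them and top enterocytes, without overlap on either side. Crypt epithelial cells, the class with the proliferating cells, were at 134 ± 18.8 CPM (SD, n = 4). Outside the epithelium, enteric glia had 242 ± 127 CPM (SD, n = 4), and smooth muscle cells and pericytes had 74.8 CPM in Control 1 and 138 in EC-Foxc-DKO 1.

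Btc encodes betacellulin, which can bind EGFR and ERBB4. Its UMIs were concentrated in Sprr-high cells, with 59.1% of the total. Control 1, Control 2, EC-Foxc-DKO 1 and EC-Foxc-DKO 2 had 67, 3, 34 and 179 of these cells. The level of Btc there was 58.2, 29.2 and 72.5 CPM in Control 1, EC-Foxc-DKO 1 and EC-Foxc-DKO 2. Bottom enterocytes had 6.39 ± 1.23 CPM (SD, n = 4), crypt epithelial cells 6.396 ± 4.16 (SD, n = 4) and top enterocytes 0.317 ± 0.448 (SD, n = 2). Every mouse with at least 10 Sprr-high cells was thus above every mouse of these 3 classes. Btc and its neighbor Areg shared Sprr-high cells as a high class, but Areg was at 418 CPM in bottom enterocytes, where Btc was at 6.39.

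Tgfa, the gene of transforming growth factor alpha, was low throughout the epithelium. It was highest in Sprr-high cells, at 24.7, 25.6 and 43.2 CPM in Control 1, EC-Foxc-DKO 1 and EC-Foxc-DKO 2, above every mouse of the next class. That class was tuft cells, the chemosensory cells of the epithelium, at 19.1 ± 4.51 CPM (SD, n = 3). Outside the epithelium, enteric glia ran from 0 to 30.1 CPM over 4 mice, on 5 Tgfa UMIs in all, and so overlapped Sprr-high cells. Epgn, the gene of epigen, had 6 of its 10 UMIs in tuft cells, and 4 of those came from 1 cell of Control 1.

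**Figure D2:**
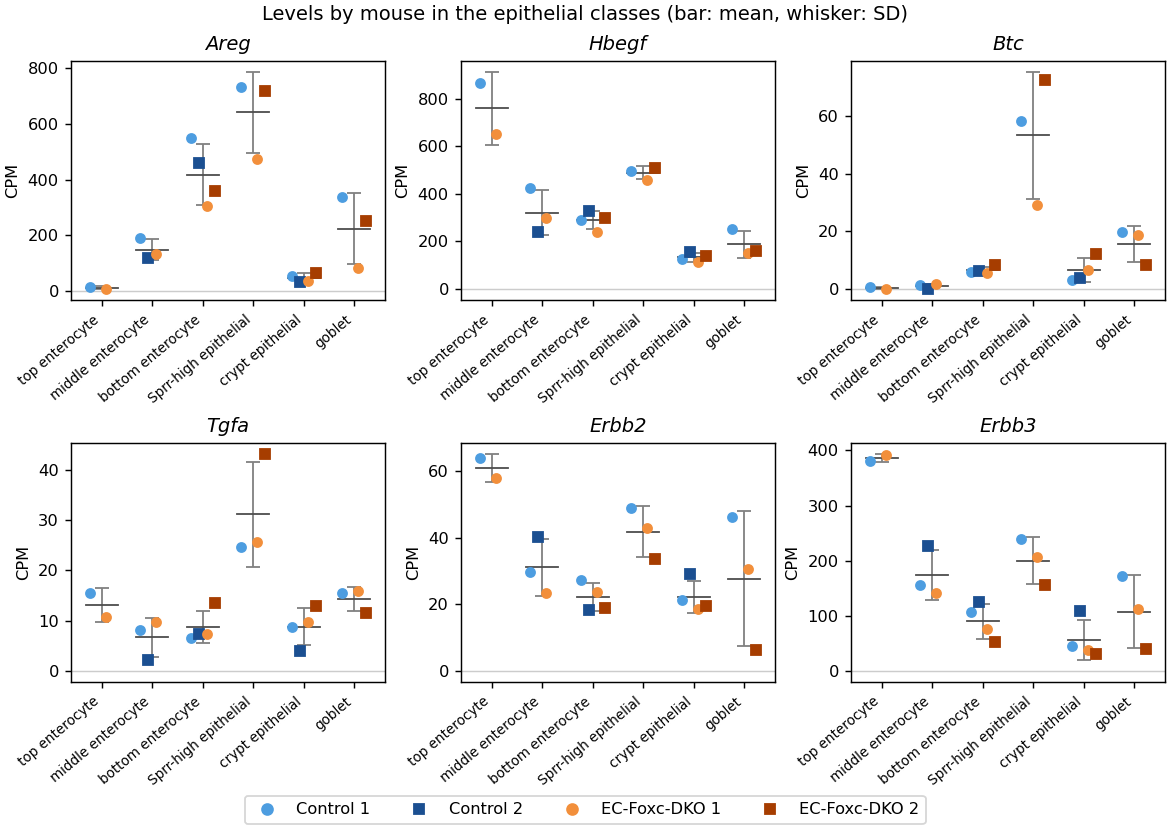
Levels in CPM (vertical axes, linear) of 4 ligands and 2 receptors in 6 epithelial classes (horizontal axes); each point is 1 mouse with at least 10 cells of the class, the bar is the mean and the whisker the SD. Areg falls from bottom to top enterocytes, Hbegf and Erbb3 are highest in top enterocytes, and Btc and Tgfa are highest in Sprr-high cells.

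Ereg, the gene of epiregulin, combined a low epithelial level with a high level in a few stromal cells. In enterocytes its mean was 16.2 ± 9.38 CPM (SD, n = 4) in bottom and 7.201 ± 4.14 (SD, n = 3) in middle enterocytes, which overlapped, and there were 0 UMIs in top enterocytes, which allows up to 0.642 CPM (3 counts, counting error only). In mesenchymal stromal cells it had 116 CPM in Control 2, from 34 UMIs in 10 of 32 cells, and 365 CPM in EC-Foxc-DKO 1, from 156 UMIs in 13 of 47 cells. The highest single cell of EC-Foxc-DKO 1 held 71 of the 156 UMIs. Some stromal cells with Ereg also held a UMI of the epithelial markers Epcam or Krt8. Such cells gave 7 of the 34 UMIs in Control 2 and 62 of the 156 in EC-Foxc-DKO 1. Control 1 had 2 stromal cells and no Ereg UMI, and EC-Foxc-DKO 2 had 1 such cell, with 21 Ereg UMIs, so the genotypes cannot be compared there. Of these UMIs, 27 of the 34 and 153 of the 156 came from a stromal cluster of 34 cells led by Adamdec1 and Sfrp1, in which Ereg itself was among the 10 leading genes. It reached 372 CPM in 13 cells of Control 2 and 1456 CPM in 19 cells of EC-Foxc-DKO 1 in that cluster. The other stromal cluster, led by Dcn and C3, had 31.6 CPM in Control 2 and 9.30 in EC-Foxc-DKO 1, and it also held the single stromal cell of EC-Foxc-DKO 2 with its 21 Ereg UMIs.

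Nrg1 encodes neuregulin 1, a ligand of ERBB3 and ERBB4. Monocytes and macrophages held 101 of its 123 UMIs. The level there was 26.7 CPM in Control 1, 11.3 in Control 2, 21.9 in EC-Foxc-DKO 1 and 61.6 in EC-Foxc-DKO 2, a mean of 30.4 ± 21.8 CPM (SD, n = 4), and the groups overlapped. Without the cells that also held a UMI of the epithelial markers Epcam or Krt8, the 4 values were 32.1, 6.54, 34.0 and 62.3 CPM. Areg was also counted in this class, at 114, 0, 42.5 and 238 CPM in the same order of mice. Of the 107 Areg UMIs of Control 1, 73 came from cells with an Epcam or Krt8 UMI, and without such cells the level in this class was 182, 0, 32.5 and 282 CPM. Its 0 in Control 2 allows a level of up to 8.47 CPM by the same limit.

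Among the receptors, Egfr, which encodes the receptor of most of these ligands, was highest in mesenchymal stromal cells and in top enterocytes. Stromal cells had 170 CPM in Control 2 and 124 in EC-Foxc-DKO 1. Top enterocytes had 136 CPM in Control 1 and 84.1 in EC-Foxc-DKO 1, which overlapped the stromal range. Middle enterocytes, at 4.90 ± 2.69 CPM (SD, n = 3), and bottom enterocytes, at 3.61 ± 0.517 (SD, n = 4), lay far below top enterocytes and near the 2.66 CPM of follicular B cells. Crypt epithelial cells had 10.5 ± 3.58 CPM (SD, n = 4), and goblet cells had 108, 95.5 and 18.9 CPM in Control 1, EC-Foxc-DKO 1 and EC-Foxc-DKO 2. Enteric glia had 0 Egfr UMIs in 92 cells of 4 mice, which allows up to 6.56 CPM.

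Erbb2 and Erbb3 both had increasing mean levels from bottom to top enterocytes. Erbb2 had 22.1 ± 4.20 CPM (SD, n = 4) in bottom, 31.1 ± 8.54 (SD, n = 3) in middle and 60.9 ± 4.33 (SD, n = 2) in top enterocytes. Its bottom and middle enterocytes overlapped, and top enterocytes lay above every mouse of the next class. Erbb3 had 89.8 ± 31.9 CPM (SD, n = 4) in bottom, 174 ± 45.7 (SD, n = 3) in middle and 387 ± 7.65 (SD, n = 2) in top enterocytes. Its second class was enteric glia, at 192, 271, 254 and 322 CPM in Control 1, Control 2, EC-Foxc-DKO 1 and EC-Foxc-DKO 2. The glial level overlapped that of Sprr-high cells, at 200.2 ± 42.3 CPM (SD, n = 3). Enteric glia thus had Erbb3 in every mouse, Erbb2 at 36.1, 20.05, 4.78 and 0 CPM in the same order, and no Egfr UMI. The Erbb2 levels rest on 6 UMIs in all. None lay above the 3-count limits of these mice, which are 36.1, 30.1, 14.3 and 46.0 CPM.

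Of the 5 other genes of the family, Erbb4 and Nrg3 had 0 UMIs among the 86018137 UMIs of all kept cells, which allows up to 0.0349 CPM. Egf had 29 UMIs and Nrg2 had 32. Nrg4, a ligand of ERBB4, had 164 UMIs, of which 48.2% were in bottom enterocytes, but its mean level was highest in tuft cells, at 11.3 ± 8.86 CPM (SD, n = 3), against 3.58 ± 2.19 (SD, n = 4) in bottom enterocytes. The proteases that free the ligands were counted far more broadly. Adam10 had 5134 UMIs and was highest in blood endothelial cells, at 148 ± 50.8 CPM (SD, n = 4), and in enteric glia, at 145 ± 42.9 (SD, n = 4). Adam17, the main sheddase of amphiregulin and TGF-alpha, had 1951 UMIs and was highest in neutrophils, at 127 ± 13.9 CPM (SD, n = 2), and in monocytes and macrophages, at 109 ± 18.3 (SD, n = 4). Its partners Rhbdf1, Rhbdf2 and Frmd8 had 220, 848 and 2691 UMIs.

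The genes with the most similar pattern were searched among 12632 genes by Pearson's r of log2(CPM + 10) over 20 classes, which share libraries and depth, as a description. For Areg these were Gsta1 (r = 0.86), Gstm3 (0.85) and Gmppb (0.85), and for Ereg they were Gsta3 (0.97), Lrat (0.94) and Msln (0.93). Cdk18 was closest to Hbegf (0.91), before Itpk1 (0.91) and Tob1 (0.89), and Ldhd was closest to Btc (0.89). Nrg1 was most like Tcp11l1 (0.86) and Trem2 (0.85), the latter a macrophage receptor. Mst1r was closest to Egfr (0.90), Atp8b1 to Erbb2 (0.95) and Src to Erbb3 (0.94). Within the family the strongest correlations were between Hbegf and Erbb2 (0.88) and between Hbegf and Erbb3 (0.87), with 0.13 between the neighbors Areg and Ereg.

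In enteric glia, Btc and Hbegf were higher in both EC-Foxc-DKO mice than in both Control mice, which is what they were chosen by. Btc had 1 UMI in 17 cells of Control 1 and 0 in 19 cells of Control 2, against 31 in 39 cells of EC-Foxc-DKO 1 and 6 in 17 cells of EC-Foxc-DKO 2. As levels these are 12.03, 0, 148 and 91.98 CPM, with exact Poisson 95% intervals of 0.305 to 67.0, 0 to 37.0, 101 to 210.5 and 33.8 to 200.2 CPM. The intervals cover counting error only, not the spread between cells or mice, and are no test of the genotype. The UMIs of EC-Foxc-DKO 1 came from 12 cells, and 1 of these held 12 of the 31. Hbegf had 144, 120, 349 and 353 CPM in the same order, from 12, 12, 73 and 23 UMIs. Over the 1644 genes that passed the filter on low counts in glia, both EC-Foxc-DKO mice were above both Control mice for 14.1%. Hbegf and Erbb3 passed that filter and Btc did not, and the Erbb3 values overlapped.

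Markers of enterocytes were unequal between these glial libraries. The 7 top enterocyte markers summed to 2598, 451, 9968 and 322 CPM in the glia of Control 1, Control 2, EC-Foxc-DKO 1 and EC-Foxc-DKO 2, and Epcam with Krt8 to 180, 50.1, 813 and 61.3 CPM. The 7 middle enterocyte markers summed to 854, 271, 5649 and 429 CPM in the same order and the 8 bottom enterocyte markers to 649.6, 140.3, 4290 and 429 CPM. The 7 Sprr-high markers summed to 1432, 1073, 1698 and 1855 CPM in that order, with Sprr2a1 and Gml2 at 0 in every mouse. Sprr1a was at 0 in all but Control 1, and Sprr2a3 was at 0 in Control 2 and EC-Foxc-DKO 2. In these mice the whole sum came from Lgals3, Anxa2 and Pmp22, so it does not gauge RNA of Sprr genes. All 8 glial markers were counted in every mouse, with sums between 11693 and 14671 CPM. Without the glial cells that held an Epcam or Krt8 UMI, Btc was at 23.4, 0, 246 and 75.8 CPM and Hbegf at 211, 142, 531 and 322 CPM in Control 1, Control 2, EC-Foxc-DKO 1 and EC-Foxc-DKO 2, from 7, 14, 20 and 14 cells. Without the barcodes of highest doublet score and with the cells clustered anew, Btc was at 0, 0, 77.3 and 93.4 CPM and Hbegf at 172, 98.3, 198 and 343 CPM. These came from 16, 17, 28 and 16 glial cells. In mesenchymal stromal cells, where 1 mouse per group had enough cells, Btc had 6 UMIs in Control 2 and 4 in EC-Foxc-DKO 1 (20.4 and 9.35 CPM), and Hbegf had 0 and 4 (0 and 9.35 CPM).

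**Figure D3:**
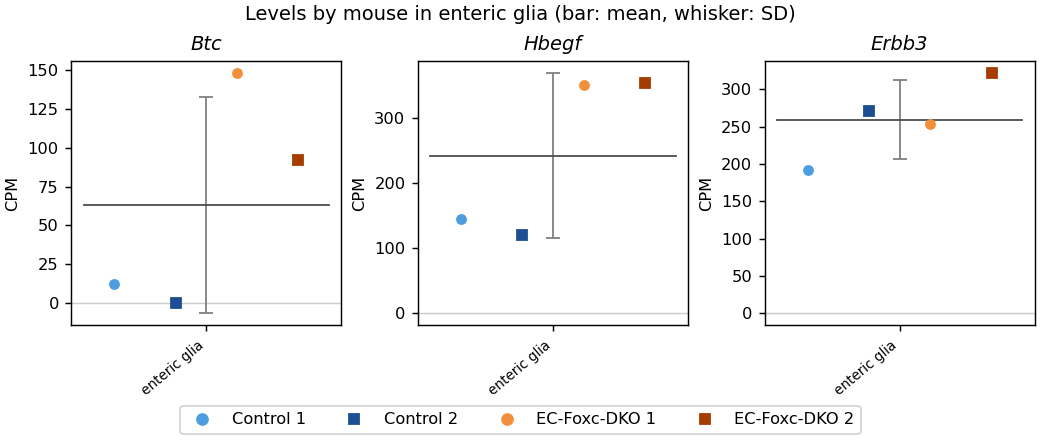
Levels in CPM (vertical axes, linear) of Btc, Hbegf and Erbb3 in enteric glia; each point is 1 mouse, the bar is the mean and the whisker the SD over 4 mice. Btc and Hbegf are higher in both EC-Foxc-DKO mice, the contrast they were picked by, and Erbb3 overlaps between the genotypes.

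Whether the genotype changed the family elsewhere was tested by edgeR's quasi-likelihood test on UMIs summed per mouse and class, in the 7 other classes with at least 10 cells in every mouse. Members passed the filter on low counts in 4 of them, 8 in bottom enterocytes, 7 in crypt epithelial cells, 3 in monocytes and macrophages and 1 in CD8 and intraepithelial T cells. None passed an adjusted p of 0.05, against a background of 0% of 9644, 9276, 7046 and 4809 genes called. At an unadjusted p under 0.05 the test gave 2, 2, 1 and 0 of the members and 308, 229, 188 and 105 of all genes, and DESeq2 called 7, 4, 2 and 1 genes and 0 members. The 4 mice are separate animals, and the samples of a group differ in depth as given above. In simulated data the edgeR test called 11% of genes changed by 1 on the log2 scale in bottom enterocytes. It called 5% in crypt epithelial cells and 3% in monocytes and macrophages. For a change of 2 it called 78%, 66% and 36% in the same order of classes. Most changes of 1 would thus not be called, so the absence of a call does not show the absence of a change.

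In bottom enterocytes the smallest unadjusted p among the members was that of Erbb3 (edgeR across all genes, 0.00811). Its levels were 107 CPM in Control 1 and 124 in Control 2 against 75.2 in EC-Foxc-DKO 1 and 53.0 in EC-Foxc-DKO 2, with no overlap. The difference was -0.82 on the log2 scale, with an SE of 0.24 and an adjusted p of 0.997 by edgeR. Without EC-Foxc-DKO 1 it was -1.03 with an adjusted p of 0.00062 (0.00062 to 1.00 over its alternatives), where the lone mouse is assumed to vary like the others and 11.5% of 10230 genes were called. Areg, at 549 and 461 CPM in Control against 304 and 359 in EC-Foxc-DKO mice, had a log2 fold change of -0.58 (SE 0.23, edgeR adjusted p 0.997). These 2 genes were below both Control mice in both EC-Foxc-DKO mice, as were 16.1% of all 9644 genes tested, and Tgfa was above them, as were 16.6%. For Tgfa the margin was small, with 7.38 CPM in EC-Foxc-DKO 1 against 7.31 in Control 2. Tgfa was at 6.56, 7.31, 7.38 and 13.6 CPM, and without EC-Foxc-DKO 1 its log2 fold change went from 0.69 (SE 0.43) to 1.09, with an edgeR adjusted p of 0.0378 (0.0378 to 1.00 over its alternatives) among the same 11.5% of genes. Ereg, at 29.1, 12.2, 7.17 and 16.3 CPM, overlapped, and its log2 fold change of -0.91 (SE 0.47) was -1.80 without EC-Foxc-DKO 2, with an edgeR adjusted p of 0.000218 (0.000218 to 1.00 over its alternatives) among 0.291% of 9632 genes called, and 0.0201 without Control 1. Hbegf differed by -0.17 (SE 0.23) on the log2 scale, Btc by 0.29 (SE 0.41), Egfr by 0.26 (SE 0.46) and Erbb2 by -0.16 (SE 0.27), with overlap in each. The median log2 fold change was -0.17 over the 8 members and 0.01 over all genes.

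In crypt epithelial cells Erbb3 again lay lower in both EC-Foxc-DKO mice, at 37.4 and 31.1 CPM against 44.96 and 109 in Control mice, a log2 fold change of -1.11 (SE 0.45, edgeR adjusted p 1.00). Egfr, with -0.61 (SE 0.48), and Erbb2, with -0.35 (SE 0.33), were lower without overlap as well, so that all 3 receptors lay below, as did 15.6% of the 9276 genes tested. Btc went the other way, from 2.88 and 3.89 CPM in Control to 6.66 and 12.1 in EC-Foxc-DKO mice, a log2 fold change of 1.58 (SE 0.63, edgeR adjusted p 1.00). It and Tgfa, with 0.67 (SE 0.50), were above both Control mice, as were 13.4% of genes. The Control levels of Btc rest on 5 and 2 UMIs. Tgfa was at 8.65 and 3.89 CPM in Control and 9.63 and 12.8 in EC-Foxc-DKO mice. Its level in Control 2 equaled that of Btc and rests on as few UMIs. Over all kept cells Btc was at 8.36, 4.08, 5.02 and 21.7 CPM in Control 1, Control 2, EC-Foxc-DKO 1 and EC-Foxc-DKO 2. Tgfa was at 9.87, 5.10, 6.96 and 18.8 CPM in the same order. Any link of these library-wide levels to the crypt levels was not tested. Areg and Hbegf overlapped between the groups in crypt epithelial cells. None of these differences passed the test, and the median was -0.17 over the 7 members and 0.00 over all genes.

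In monocytes and macrophages Hbegf was at 31.0 and 5.65 CPM in Control and 48.1 and 82.7 in EC-Foxc-DKO mice, without overlap, as were 16.4% of 7046 genes in that direction. The difference was 1.58 on the log2 scale, with an SE of 0.60 and an adjusted p of 1.00 by edgeR. Epcam with Krt8 summed to 135 and 19.8 CPM in Control and 633 and 171 in EC-Foxc-DKO mice in this class. Without cells holding a UMI of either, Hbegf was at 21.4, 6.54, 25.1 and 69.8 CPM in Control 1, Control 2, EC-Foxc-DKO 1 and EC-Foxc-DKO 2, and the groups did not overlap. Without the barcodes of highest doublet score it was at 28.7, 5.36, 26.6 and 84.8 CPM, and the groups overlapped. The cells were clustered anew for this. The class then had 124, 44, 220 and 102 cells, against 107, 42, 172 and 102 before, so the change is not that of doublet removal alone. Areg, with 1.10 (SE 1.17), and Nrg1, with 0.92 (SE 0.61), overlapped. Areg in CD8 and intraepithelial T cells, from 16, 0, 5 and 10 UMIs in the same order of mice, had a log2 fold change of -0.73 (SE 1.22). Cells with an Epcam or Krt8 UMI held 5 of the 16 UMIs of Control 1 and all UMIs of both EC-Foxc-DKO mice. A single cell held 11 of the 16 UMIs of Control 1, and another held all 10 of EC-Foxc-DKO 2.

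**Figure D4:**
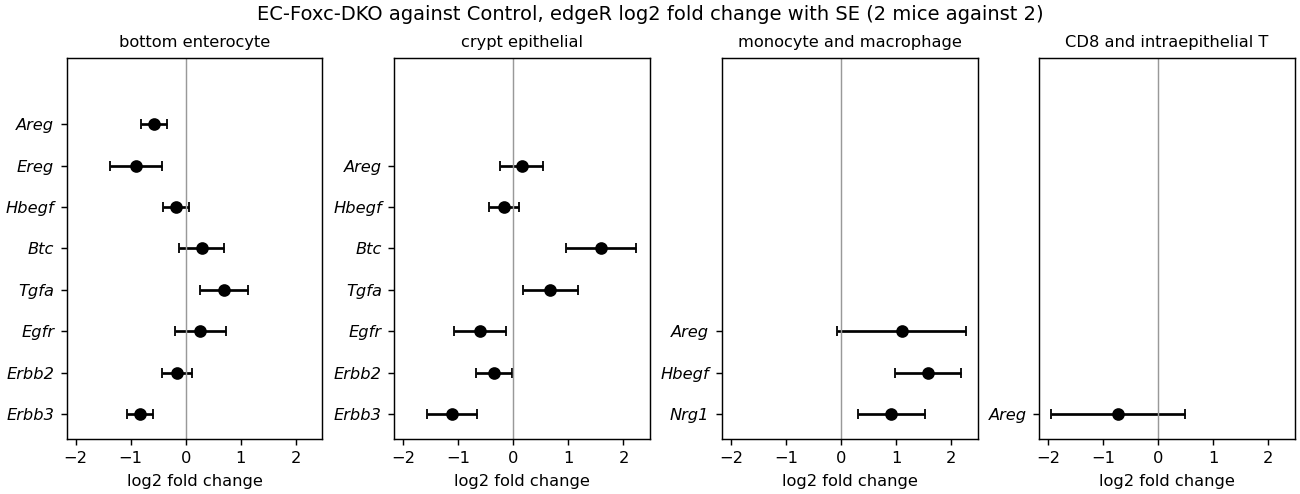
Log2 fold change of EC-Foxc-DKO against Control mice (horizontal axes) for each member that passed the filter on low counts, in 4 cell classes; points are edgeR estimates and whiskers the SE, from 2 mice per group. Erbb3 lies below 0 in both bottom enterocytes (-0.82) and crypt epithelial cells (-1.11), and no value passed the adjusted threshold.

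Beyond the members, 45 other pathway genes, upstream and downstream of the receptors, were followed in 5 groups. These are other family members, sheddases and their partners, adaptors and signal relay, inhibitors and feedback, and early response targets. None of those tested passed in any of the 7 classes, with 35 tested in bottom enterocytes, 33 in crypt epithelial cells, 30 in monocytes and macrophages, 22 in CD8 and intraepithelial T cells, 19 in blood endothelial cells, 18 in follicular B cells and 3 in plasma cells. At an unadjusted p under 0.05 there were 5 of 160 (3.12%), near the 2.73% of all 38809 gene tests in these classes. Phlda1, an early response gene, was among them in crypt epithelial cells with a log2 fold change of 0.93 (SE 0.28). Socs3, a feedback inhibitor of cytokine signaling, was at 1.23 (SE 0.43) in follicular B cells and -1.85 (SE 0.72) in monocytes and macrophages. Ptpn1 in follicular B cells, at 0.84 (SE 0.40), and the adaptor Grb2 in plasma cells, at 1.37 (SE 0.40), were the others. The Socs3 values of monocytes and macrophages overlapped, with single mice from 128 to 1180 CPM. Phlda1 in crypt epithelial cells and Socs3 and Ptpn1 in follicular B cells did not overlap. Both EC-Foxc-DKO mice were above both Control mice for 372 of 3418 genes in follicular B cells and 557 of 1129 in plasma cells. The median log2 fold change of the list was -0.05 in bottom enterocytes, 0.11 in crypt epithelial cells and -0.01 in monocytes and macrophages.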

How the data were processed

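Single-cell 3′ libraries (10x Genomics v3.1) of 4 mice were used. The authors deposited one matrix of raw UMI counts per mouse, made with Cell Ranger (version 4.0.0 per the labels) on mm10; the study's text gives another version. A deposited table of the joined data served only for its list of 18407 genes; its values were not used. The members, gene lists and tests were chosen with earlier results of these data known.

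Cells with over 10% mitochondrial UMIs were left out. Counts were scaled to 10000 per cell and log-transformed. The 2923 variable genes (3 members among them) gave principal components and Leiden clusters (scanpy 1.11.5, leidenalg 0.10.2). Of 25 clusters, all but 2 were named by marker lists. Naming thresholds and the split of 1 mixed cluster were set after the clusters were seen. Doublets were kept and removed in an alternative. UMIs were summed per mouse and class, and classes with at least 10 cells in each mouse were tested with edgeR 4.0.16 (filterByExpr, TMM, quasi-likelihood, Benjamini-Hochberg over all genes of the class; R 4.3.3), with DESeq2 1.42.0 as an alternative. The steps were tested on simulated data. All 10 members are named. By plan, a fold change and its alternatives are those in the member's highest tested class. Fold changes in other tested classes were added to the plan. So were the alternatives of Tgfa in bottom enterocytes, where it was called with a mouse left out. Pathway genes past the threshold were to be named, and those at an unadjusted p under 0.05 were named after their values were seen. Total UMIs per library ran from 15557181 to 72046346. Intervals and limits cover counting error only. Alternatives were other normalization, no filter, each mouse left out, a replicate block, other limits on mitochondrial UMIs, no doublets, no shared barcodes, members left out of clustering, and another clustering resolution. The genes most similar to Tgfa are not reported here.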

Additional observations from a re-analysis of the deposited data

How the results depend on the processing

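The count of members called stayed at 0 in every alternative but the omission of a mouse, which gave 0 to 2. Over all 7 classes, where the main test called 0 genes, the count was 17 with DESeq2, 1 with DESeq2 size factors in edgeR, 486 without the filter on low counts, 8 with a mitochondrial limit of 20%, 1 without shared barcodes and 1 at a clustering resolution of 1.0. Omission of a mouse gave 76 to 1344 genes. Pathway genes went from 0 to 2 without the filter and to 0 to 12 on omission of a mouse. The replicate block gave 11 genes, 0 members and 0 pathway genes. Deviations of mice with the same number correlated at -0.36 in crypt epithelial cells, -0.22 in bottom enterocytes and -0.19 in monocytes and macrophages. In these classes mice of unlike number thus deviated together. The other classes lay between -0.091 and -0.0042. The crossed pairing, added after the data were seen, gave 61 genes and 0 members. Of 135 log2 fold changes of members under an alternative, 131 kept sign and side of the threshold. The sign changed in bottom enterocytes for Ereg without Control replicate 1 and for Hbegf without EC-Foxc-DKO replicate 1, over ranges of -1.80 to 0.0201 and -0.40 to 0.0229 on omission of a mouse. Of 97 levels in the highest class, 93 stayed within 1 SD over the mice. The levels with a mouse omitted are among them and cannot leave that range by construction. The level of Btc is that in the glia it was picked by. The count is therefore no measure of stability. The glial difference of Hbegf, which chose the gene, was 135 CPM without the highest doublet scores. Plasma cells could not be fitted under 2 alternatives. The causes were not tested. The glial and stromal values rest on 92 and 82 cells.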
